A study of Mus musculus with 10 samples.

Results

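The apelin and adrenomedullin receptor systems were followed through 6 genes chosen by name, Apln, Aplnr, Adm, Calcrl, Ramp2 and Ramp3, out of 26504 gene symbols in 10 deposited count tables of sorted bone endothelial cells. Their unique molecular identifier (UMI) counts were read in cells with 500 to 6000 detected genes and under 25% mitochondrial UMIs, which kept 46283 of 47466 barcodes. The study used droplet single-cell RNA sequencing to ask which endothelial cell types line the vessels of mouse femur and tibia, and how they differ with age and with drugs that act on bone turnover. Each group had 2 libraries from C57BL/6 mice carrying the Cdh5-mTnG transgene, in which the endothelial Cdh5 promoter drives membrane tomato and nuclear GFP. Lineage-depleted cells positive for both colours were sorted, so every group, controls included, carried the reporter. The adult group (12 weeks, female, untreated) was the reference. It was set against juvenile mice (3 weeks, male and female), aged mice (75 weeks, female), and 12-week female mice given parathyroid hormone (PTH) every day or alendronate every other day. By the study's methods the sequencing was done on pooled animals and not repeated, so the libraries of a group may share a pool and p-values measure only the spread between libraries. The methods name 10x chemistry V2 and V3 without saying which library used which, so chemistry and group cannot be told apart.

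Apelin, the product of Apln, is a secreted peptide made by sprouting endothelial tip cells, and APLNR is its G-protein-coupled receptor, found on the neighbouring endothelium and best known for roles in vessel growth and calibre. Adrenomedullin, the product of Adm, is a vasodilator peptide induced by low oxygen that stabilises the endothelial barrier. It signals through the calcitonin receptor-like receptor encoded by Calcrl, which reaches the cell surface only with a receptor activity-modifying protein (RAMP). RAMP2 and RAMP3 each turn CALCRL into an adrenomedullin receptor, and differ in how the receptor is recycled.

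On the mouse genome build GRCm38 (RefSeq annotation) the ligand genes were Apln at chrX:48025146-48034853 on the minus strand and Adm at chr7:110627657-110629820 on the plus strand. The receptor genes were Aplnr at chr2:85136360-85139923 (plus) and Calcrl at chr2:84330626-84425405 (minus), and the partners Ramp2 at chr11:101246334-101248250 and Ramp3 at chr11:6658506-6677478 (both plus). Counts covered whole genes, exons and untranslated regions included, and Gm11978 on the opposite strand shares 101 of the 1380 exon bases of Ramp3. Whether counting used the strand is not given in the sources used here, so those reads could not be told apart. The 250 bases before the start of each ligand gene are shown next to the counts of hypoxia-inducible genes given further on. The reason was that, over all endothelial cells though not in each class, Apln and Adm were both higher in juvenile and alendronate libraries. Capitals mark the letters ACGTG or GCGTG on either strand, the core letters bound by hypoxia-inducible factors (read as CACGT and CACGC on the other strand). The windows are chrX:48034854-48035103 (minus strand) and chr7:110627407-110627656 (plus strand), 5′ to 3′.
Apln: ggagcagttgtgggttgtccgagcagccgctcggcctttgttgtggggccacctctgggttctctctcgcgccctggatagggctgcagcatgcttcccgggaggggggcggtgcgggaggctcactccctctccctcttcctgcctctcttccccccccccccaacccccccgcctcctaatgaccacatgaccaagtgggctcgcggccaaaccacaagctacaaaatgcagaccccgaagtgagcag
Adm: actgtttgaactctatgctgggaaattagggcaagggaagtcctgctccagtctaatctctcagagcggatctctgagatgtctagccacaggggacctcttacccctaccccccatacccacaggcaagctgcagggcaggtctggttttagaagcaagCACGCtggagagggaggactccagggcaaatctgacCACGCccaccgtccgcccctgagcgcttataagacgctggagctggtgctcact
The Apln window held neither motif. The Adm window held GCGTG 2 times, each as CACGC, and no ACGTG. Among 32851 RefSeq promoter windows 16.6% held ACGTG, 28.2% held GCGTG and 38.6% held either, so both outcomes were common. A link between these letters, low oxygen and the ligand levels was not tested. The Calcrl window held neither motif and the Ramp3 window held GCGTG 2 times. Windows for Aplnr and Ramp2 were not analysed here.

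Total UMIs ran from 10653583 to 28419323 per library and the median per cell from 3075 to 5149. Endothelial clusters, drawn with the 6 genes left out of the clustering, were given the study's class names by a score over each class's markers, at least 3 of which had to be raised. In 2 of the 5 bmEC clusters (4290 and 3662 cells) 8 and 7 of the 8 bmEC markers were raised, but none stood among the cluster's 10 leading genes. They are bmEC-like (sinusoidal bone marrow cells, 20251), mpEC-like (metaphyseal capillary cells, 10083), aEC-like (arterial, 4638), proliferating pEC-like (650) and remodelling or type R rEC-like cells. The rEC name was split by its markers into a Timp4/Aqp7 class (2708 cells) and a Tagln/Vwf/Fmo2 class (1957 cells). The latter took in 360 of 363 cells that matched lymphatic markers at a finer resolution. A further 3516 endothelial cells stayed unnamed and entered the totals only. The names are shortened below to the class. In the aged libraries pEC had no sum large enough to test. Any 2 libraries shared between 3 and 88 cell barcodes. Every pair with an aged library shared 3 or 4, and every other pair 10 or more. The aged libraries also had the highest medians, 5149 and 5056 UMIs per cell, and alone held 286 symbols that were left out. A difference in how the aged libraries were prepared or processed thus cannot be told apart from age. All 7 haematopoietic markers together reached 5.95 to 24.2 CPM (counts-per-million units, a gene's UMIs scaled to the total) in the endothelial sums, with Ptprc, the defining gene, at 0 in juvenile replicate 2. The granulocyte precursor list moved with group, from 5.30 and 11.3 CPM in juvenile to 49.0 and 57.2 in adult, 89.6 and 119 in aged, 32.0 and 30.6 in PTH and 80.8 and 101.2 in alendronate libraries. The B cell list was lowest in juvenile libraries (84.9 and 91.3 against 555 and 259 in adult) and the erythroid list lowest under PTH (169.9 and 172 against 827 and 491 in adult), and the part of such RNA in the results was not tested. In the 1998 cells named haematopoietic the 6 genes themselves were low, at 2.34 CPM for Apln, 29.6 for Aplnr, 0.718 for Adm, 19.9 for Calcrl, 65.1 for Ramp2 and 11.1 for Ramp3.

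Within the endothelium, Apln, Aplnr and Ramp3 shared a high level in mpEC. Adm had its highest mean over the libraries in the Timp4/Aqp7 rEC class, though not the highest level in each library. Calcrl varied less in fold and Ramp2 passed in no class. Each value is the CPM of all UMIs of a class in a library, and a class was called different when its level departed from the mean of the other classes by over 1 on the log2 scale with an adjusted p under 0.05 (edgeR, Benjamini-Hochberg over all genes). By this rule 17 of 36 gene and class pairs passed. Of all genes tested, 15.2% passed in bmEC, 6.41% in mpEC, 12.4% in aEC, 14.1% in the Timp4/Aqp7 class, 10.3% in the Tagln/Vwf/Fmo2 class and 12.6% in pEC. The 6 genes passed 2, 3, 4, 2, 3 and 3 times in these classes, in the same order. The classes were drawn from the same cells, so these tests describe how far the levels lie apart.

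**Figure D1:**
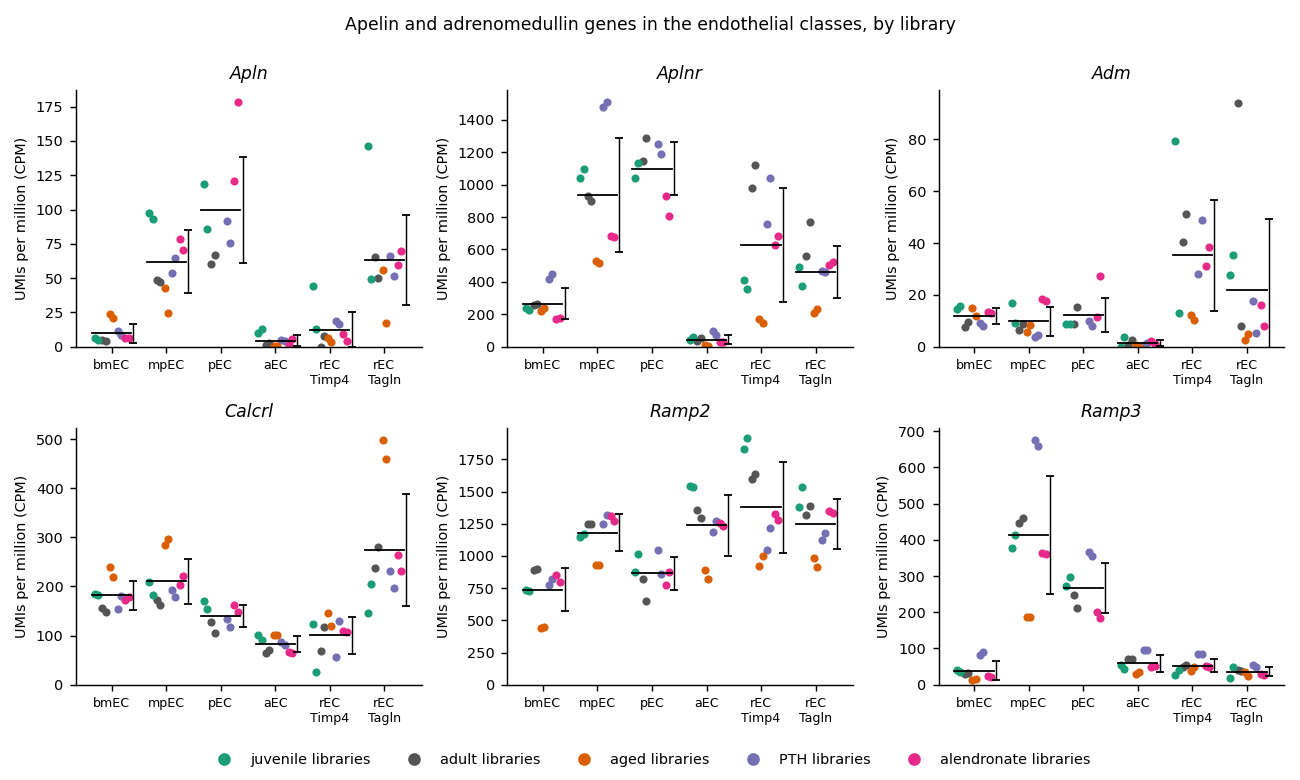
CPM values (linear axis from 0) of each gene in the 6 endothelial classes. Each point is 1 library coloured by group, the line is the mean and the bar its SD (n = 10 libraries, 8 for pEC). Ramp3 stood highest in mpEC (413 ± 164 CPM) and pEC (267 ± 69.2), and Aplnr lowest in aEC (42.8 ± 27.2).

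Apln was lowest at 24.2, with a median of 59.1 and a highest value of 97.2 CPM over the 10 mpEC sums. In bmEC the same values were 3.98, 6.64 and 23.5 CPM, so no mpEC library fell below the highest bmEC library. The mean level was 99.7 ± 38.6 CPM in pEC (SD, n = 8), 63.1 ± 32.8 in the Tagln/Vwf/Fmo2 class, 62.0 ± 23.2 in mpEC, 12.3 ± 12.6 in the Timp4/Aqp7 class, 9.77 ± 7.02 in bmEC and 4.34 ± 4.17 in aEC (n = 10). Apln was 3.80-fold higher in mpEC than the mean of the other classes (log2 1.93 ± 0.175 SE, adjusted p = 2.99e-14). It was also higher in pEC (2.62) and the Tagln/Vwf/Fmo2 class (1.77), and lower in bmEC (-1.50), the Timp4/Aqp7 class (-1.63) and aEC (-3.19). With cells gated on a few markers in place of clusters the bmEC (-0.47), Timp4/Aqp7 (-0.09) and Tagln/Vwf/Fmo2 (0.60) calls ended, the last also at the finer resolution (0.75). In the Tagln/Vwf/Fmo2 class the lymphatic-like cells held Apln at 99.7 ± 56.3 CPM (154 UMIs, 8 libraries) and the remaining cells at 32.4 ± 19.5 CPM (9 libraries). Neighbouring levels that were not told apart were pEC and the Tagln/Vwf/Fmo2 class (0.71, adjusted p = 0.057), that class and mpEC (-0.13), and the Timp4/Aqp7 class and bmEC (-0.11). The step from mpEC down to the Timp4/Aqp7 class was 2.96 (adjusted p = 1.19e-08). Only 48 and 60 Apln UMIs stood behind the Timp4/Aqp7 and aEC values. Of all 4928 endothelial Apln UMIs 63.6% came from mpEC, which gave 28.7% of all endothelial UMIs.

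Adm was a rare transcript, with 1773 UMIs in all endothelial cells. In the Timp4/Aqp7 class its lowest, median and highest values were 10.2, 34.8 and 79.3 CPM, against 3.77, 8.47 and 18.3 in mpEC and 0, 0.955 and 3.69 in aEC. Adm was higher in the Timp4/Aqp7 class than the mean of the others (log2 2.08 ± 0.308, adjusted p = 6.73e-08), and lower in aEC (-3.31 ± 0.427), where only 25 UMIs were counted. The Timp4/Aqp7 class stood above the Tagln/Vwf/Fmo2 class (1.05, adjusted p = 0.0259), but not in every library. The highest Tagln/Vwf/Fmo2 library, at 94.0 CPM, stood above every Timp4/Aqp7 library. The lowest Timp4/Aqp7 library, at 10.2 CPM, lay below the highest bmEC library (15.5 CPM). The Tagln/Vwf/Fmo2 class, pEC, bmEC and mpEC were not told apart among themselves as neighbours, and mpEC stood above aEC (2.75, adjusted p = 9.42e-07). By UMI share, bmEC held 48.8% of Adm against 46.0% of all UMIs, and the Timp4/Aqp7 class 10.6% against 3.64%. In the Tagln/Vwf/Fmo2 class Adm varied from 2.74 to 94.0 CPM. The lymphatic-like cells held 68 Adm UMIs (53.5 ± 86.2 CPM in 8 libraries), and the remaining cells of the class 17 UMIs (3.10 ± 2.80 CPM in 9 libraries). Its mean of 21.9 ± 27.5 CPM thus rested largely on the lymphatic-like cells.

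Aplnr in mpEC ran from 519 to 1508 CPM with a median of 914, and in aEC from 7.16 to 94.7 with a median of 38.2, which do not overlap. Mean levels were 1099 ± 164 CPM in pEC, 936 ± 354 in mpEC, 629 ± 352 in the Timp4/Aqp7 class, 459 ± 161 in the Tagln/Vwf/Fmo2 class, 266 ± 93.9 in bmEC and 42.8 ± 27.2 in aEC. Aplnr was higher in mpEC (1.58 ± 0.120, adjusted p = 4.60e-17) and pEC (1.67 ± 0.143) and lower in aEC (-3.95 ± 0.193). Neither pEC and mpEC (0.08) nor the 2 rEC classes (0.40, adjusted p = 0.0962) were told apart. Averaged over groups, mpEC exceeded the Timp4/Aqp7 class by 0.60 (adjusted p = 0.00356) and bmEC exceeded aEC by 2.86. In adult libraries the Timp4/Aqp7 class was not below mpEC, by the values given further on. From adult libraries, Aplnr in the Timp4/Aqp7 class moved by -1.35 in juvenile and -2.67 in aged libraries, against 0.24 and -0.85 in mpEC. The receptor transcript was thus present in both rEC classes and in mpEC, and nearly absent from arterial cells.

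Calcrl had the narrowest range of class means in fold apart from Ramp2, from 82.9 ± 15.6 CPM in aEC to 275 ± 114 in the Tagln/Vwf/Fmo2 class. The mpEC libraries ran from 162 to 296 CPM (median 198) and the bmEC libraries from 147 to 240 (median 180), with overlap. Calcrl was lower in aEC (-1.14 ± 0.0795) and passed as higher in the Tagln/Vwf/Fmo2 class (1.01 ± 0.0747), a call that ended at 0.94 without aged replicate 1, 0.97 with total counts, 0.98 with no filter on low counts, 0.95 at the coarser resolution, 0.91 without integration and 0.96 with marker gates. The aEC call ended with marker gates (-0.69), without integration (-0.82) and at the coarser resolution (-0.88). All steps in its order passed the neighbour test (the smallest being mpEC over bmEC at 0.20, adjusted p = 0.0263) except bmEC against pEC (adjusted p = 0.0507).

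The CALCRL partners had unlike patterns. Ramp2 ran from 927 to 1320 CPM in mpEC and from 438 to 903 in bmEC, and only the step from mpEC to pEC (0.56, adjusted p = 1.33e-07) passed between neighbours in its order. Ramp3 ran from 186 to 675 CPM in mpEC, with a median of 395, and from 11.6 to 89.1 in bmEC, with a median of 30.8. Ramp3 was 6.3-fold higher in mpEC than the mean of the other classes (2.66 ± 0.0706, adjusted p = 7.74e-38) and higher in pEC (1.74), and lower in bmEC (-1.58, a call lost with marker gates at -0.07) and the Tagln/Vwf/Fmo2 class (-1.53). The mpEC level exceeded that of pEC by 0.77, and pEC exceeded aEC by 1.98. mpEC held 74.0% of the Ramp3 UMIs but 36% of the Ramp2 UMIs and 34.3% of the Calcrl UMIs.

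To describe the balance between the partners, Ramp3 made up 25% ± 6.09 of Ramp2 and Ramp3 UMIs in mpEC and 23.4 ± 3.55% in pEC, against 4.72 ± 2.71% in bmEC, 4.59% in aEC, 3.95% in the Timp4/Aqp7 class and 2.87% in the Tagln/Vwf/Fmo2 class. In the sum of all endothelial cells the share was 14.8 and 15.5% in juvenile and 13.2 and 13.5% in adult libraries. It was 9.44 and 9.87% in the aged libraries, 22.8 and 24.7% under PTH, and 9.96 and 10.2% under alendronate. Inside mpEC the PTH mean was again the highest (34.2%) and the aged mean the lowest (16.7%), with adult (26.6%), juvenile (25.5%) and alendronate (21.9%) libraries between. In bmEC the PTH mean was 9.61% against 3.32% in adult libraries. In the rEC classes the aged mean lay above the adult mean. It was 4.3 against 3.1% in the Timp4/Aqp7 class, where juvenile was lowest (1.7%), and 3.01 against 2.82% in the Tagln/Vwf/Fmo2 class.

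**Figure D2:**
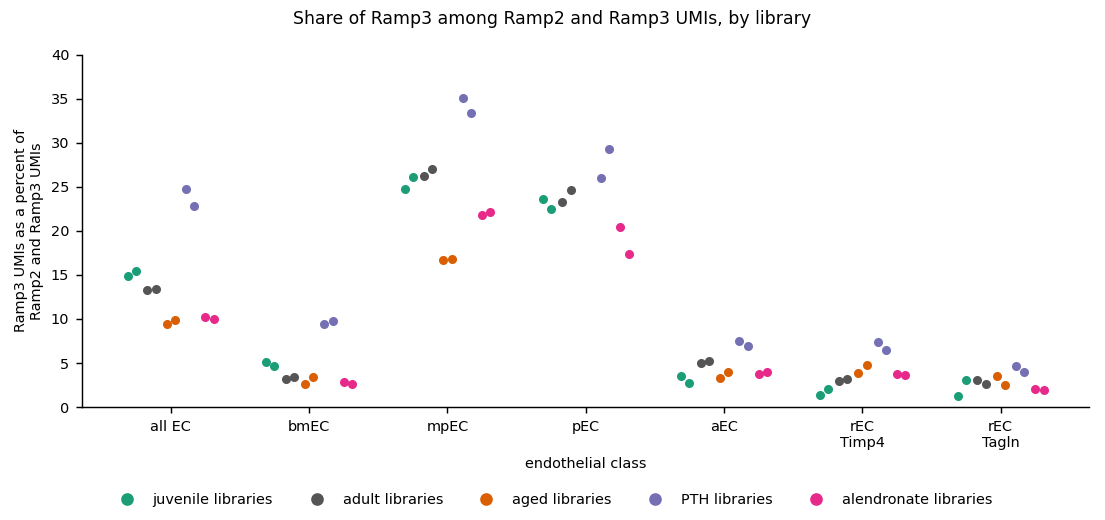
Ramp3 UMIs as a percent of Ramp2 and Ramp3 UMIs (vertical axis, linear from 0) in all endothelial cells and each class. Points are libraries coloured by group. The mpEC and pEC points lie above those of the other named classes, and within all endothelial cells the PTH libraries are highest at 22.8 and 24.7%.

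To ask how many cells held each transcript, every cell with at least 1000 UMIs was thinned to that number, which left out the shallower cells and kept 41919 of 43803 endothelial and 1968 of 1998 haematopoietic cells. Aplnr was then seen in 47.3 ± 12.9% of mpEC, 60.4% of pEC, 37.6% of the Timp4/Aqp7 class, 18.4% of bmEC and 3.21% of aEC. Apln was seen in 4.39 ± 1.98% of mpEC, 10.1% of pEC, 3.79% of the Tagln/Vwf/Fmo2 class, 1.15% of the Timp4/Aqp7 class, 0.809% of bmEC and 0.438% of aEC. The last value is close to the share in cells named haematopoietic, 0.407% (exact binomial 95% interval 0.176 to 0.799%), and is read as background. Adm was seen in 3.35% of the Timp4/Aqp7 class and at most 1.45% of any other class. Ramp3 was seen in 28.7% of mpEC and 3.87% of bmEC, and Calcrl in 18.3% and 15.7%. The shares among all endothelial cells were 1.96% for Apln, 28.2% for Aplnr, 0.935% for Adm, 15.0% for Calcrl, 57.6% for Ramp2 and 12.2% for Ramp3, and 5.43, 47.4, 2.93, 40.7, 86.6 and 26.6% in the same order before thinning. In the haematopoietic cells the thinned shares were 3.25% for Aplnr, 0.0508% for Adm, 2.39% for Calcrl, 6.86% for Ramp2 and 1.37% for Ramp3, at a median of 5753 UMIs per cell against 3507 in endothelial cells. In 477 mural and mesenchymal cells (median 4707 UMIs) they were 0.21% for Apln, 4.82% for Aplnr, 0.419% for Adm, 6.92% for Calcrl, 22.4% for Ramp2 and 3.15% for Ramp3. The aEC share for Aplnr (3.21%) lay below both and is read as background. The exact binomial intervals of the mural and mesenchymal cells were 1.77 to 5.13% for Ramp3 and 4.81 to 9.58% for Calcrl. Ramp3 lay within in bmEC (3.87%), aEC (4.965%), the Timp4/Aqp7 class (4.19%) and the Tagln/Vwf/Fmo2 class (3.31%). Calcrl lay within in aEC (7.25%) and the Timp4/Aqp7 class (9.17%). Apln (0.0053 to 1.16%) did so in bmEC and the Timp4/Aqp7 class, and Adm (0.051 to 1.51%) in every class but Timp4/Aqp7. These shares were not told apart from the mural and mesenchymal level at this depth. The clusters of those cells held endothelial Cdh5 at 311 to 716 CPM, and the part of endothelial RNA in that level was not tested. The haematopoietic intervals were lower, at 0.0013 to 0.283% for Adm, 0.906 to 1.99% for Ramp3 and 1.76 to 3.16% for Calcrl. Above them lay Adm in every class but aEC, and the Ramp3 and Calcrl shares just listed. Changes given below for Adm outside the Timp4/Aqp7 class, and for Apln and Ramp3 in bmEC, concern shares within the mural and mesenchymal intervals.

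Cells with Apln held Aplnr more often than other cells did, while for Adm and Calcrl the ratio lay on both sides of 1. Of 41919 thinned endothelial cells 467 held both Apln and Aplnr, and the odds ratio of joint detection was above 1 in 10 of 10 libraries, with a lowest value of 2.32, a median of 3.28 and a highest of 4.49. Aplnr was seen in 54.3 ± 10.8% of cells with Apln and in 26.8 ± 8.09% of the rest. Inside mpEC the median was 1.68 (0.866 to 2.62, above 1 in 9 of 10 libraries). Inside the mpEC cluster that carries the marker Kcne3 it was 1.11, above 1 in 6 of 10. In bmEC the median was 3.09, on 44 cells with both transcripts (1.05 to 12.0, above 1 in 10 of 10), so the lower ratio held for mpEC and not for bmEC. For Adm and Calcrl the median was 1.00 (0.381 to 1.46, above 1 in 5 of 10 libraries), with Calcrl in 14.5% of Adm cells and 15.6% of the rest. For Calcrl and Ramp3 the median was 1.33 over all endothelial cells (10 of 10 libraries) and 1.08 in mpEC, for Calcrl and Ramp2 1.04, and for the receptors Aplnr and Calcrl 1.41 (10 of 10) and 1.27 in mpEC. No test was run on these ratios. The difference between the pairs was likewise not tested.

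**Figure D3:**
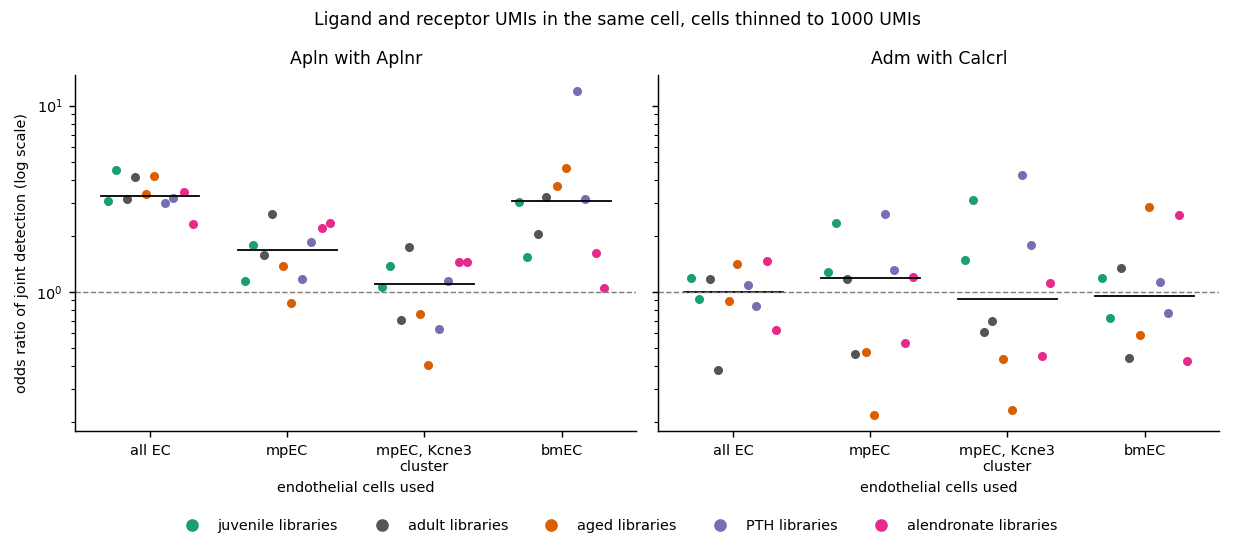
Odds ratio (log axis) of finding ligand and receptor UMIs in the same cell thinned to 1000 UMIs, for Apln with Aplnr (left) and Adm with Calcrl (right), by class. Points are libraries coloured by group, bars are medians and the dashed line is 1. All 10 libraries lie above 1 for Apln with Aplnr in all endothelial cells, from 2.32 to 4.49, while Adm with Calcrl scatters from 0.381 to 1.46.

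Cells with Apln and no Aplnr UMI were then set against cells with Aplnr and no Apln UMI, summed in 9 libraries. Of 3579 genes tested, 18 passed (0.503%), 7 higher and 11 lower in the Apln cells, and 420 had an unadjusted p under 0.05. Ctgf, a matricellular growth factor gene, was higher by 1.42 ± 0.232 (adjusted p = 3.88e-06), Vim, which encodes the intermediate filament vimentin, by 1.27 (adjusted p = 4.22e-26) and Igfbp3 by 1.06. Lipg, the endothelial lipase (-1.49), Iqsec1 (-1.29), Btnl9 (-1.24), Gpr182 (-1.13) and Fam171a1 (-1.07) were lower. Inside mpEC, where 3 libraries had enough cells, 9 of 3571 genes passed, among them Btnl9 (-1.24). Those higher with at least 20 CPM and 1 direction in all 3 libraries were Cyr61 (3.63), Kit (2.24) and Igfbp3 (1.09). Ctgf and Vim were not among them. Cells with Adm and no Calcrl UMI, against the reverse, differed in 40 of 4672 genes (0.856%, 21 higher and 19 lower, 473 at an unadjusted p under 0.05, 7 libraries). Timp4 (2.82, adjusted p = 2.97e-14), Car4 (1.96), Tcf15 (1.72), C1qtnf9 (1.70) and Ctgf (1.57) were higher, and Rbp7 (-1.94), Enpp6 (-1.69), Slc6a6 (-1.67), Rasa1 (-1.58) and Slco2a1 (-1.56) lower. Timp4, Car4 and C1qtnf9 are markers of the Timp4/Aqp7 class and Enpp6 of mpEC, and the ligand and receptor cells differ in their mix of classes. Apln itself was higher in Adm cells, at 93.0 against 28.9 CPM (1.72 ± 0.387, adjusted p = 0.00329, higher in 6 of 7 libraries), and Ramp3 lower (-1.15), while Aplnr did not pass (-0.14, adjusted p = 0.884).

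The second question was how the genes differed between age and treatment groups. Values below are CPM, scaled within each set of cells and so slightly unlike the class values above, and a difference from adult libraries was called at an adjusted p under 0.05. In bulk sums, fewer cells that hold a transcript and less of it per cell cannot be told apart. The share of classes also moved with group. mpEC made up 21.3 and 21.4% of endothelial cells in adult, 23.2% in both juvenile, 21.6 and 24.0% in aged, 28.7 and 35.1% in PTH and 18.0 and 19.3% in alendronate libraries. bmEC made up 56.1 and 57.0% in adult, 62.2 and 63.0% in juvenile, 25.3 and 25.8% in aged, 33.7 and 37.0% in PTH and 42.7 and 43.6% in alendronate libraries. The Timp4/Aqp7 class had the highest mean Adm over all groups, but in aged libraries its Adm was lower than in adult (log2 -1.94). This class made up 4.51 and 4.28% in adult, 1.14 and 0.81% in juvenile and 13.0% in both aged libraries. Its share was 1.18 and 4.45% under PTH (24 and 327 cells) and 10.7 and 10.9% under alendronate. aEC, with little Aplnr, made up 7.72 and 7.91% in adult, 3.04 and 3.45% in juvenile, 18.6 and 17.7% in aged, 12.6 and 13.2% in PTH and 12.65 and 13.9% in alendronate libraries. The part of these shares in the values over all endothelial cells was not tested. All comparisons used the same 2 adult libraries.

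Over all endothelial cells, Apln read 20.2 and 18.3 CPM in adult, 41.2 and 37.4 in juvenile, 24.1 and 18.2 in aged, 34.8 and 34.9 in PTH and 30.6 and 29.7 in alendronate libraries. Adm read 9.11 and 10.1 in adult, 15.4 and 13.6 in juvenile, 7.55 and 7.37 in aged, 6.38 and 6.41 in PTH and 14.3 and 13.5 in alendronate libraries. In these sums the ligands thus both stood above adult in juvenile and alendronate libraries, and went apart under PTH, with Apln above and Adm below. This did not hold in each class. In juvenile bmEC Adm passed and Apln did not. Under alendronate both passed in mpEC, while Adm in the Timp4/Aqp7 class read -0.42 on the log2 scale and did not pass. Aplnr read 495 and 490 in adult, 544 and 565 in juvenile, 262 and 268 in aged, 888 and 880 in PTH and 354 and 347 in alendronate libraries. Calcrl read 153 and 147 in adult, 194 and 182 in juvenile, 212 and 207 in aged, 166 and 165 in PTH and 170.0 and 169 in alendronate libraries. No group overlapped adult for either receptor gene, which says little with 2 libraries a group. The share of all genes without overlap was not counted. Ramp2 read 1071 and 1064 in adult, 919 and 938 in juvenile, 650.0 and 655 in aged, 1082 and 1123 in PTH and 1098 and 1048 in alendronate libraries. Ramp3 read 163 and 165 in adult, 160.3 and 172 in juvenile, 67.7 and 71.7 in aged, 355 and 331 in PTH and 125 and 116 in alendronate libraries. The PTH libraries were the highest and the aged libraries the lowest for both Aplnr and Ramp3.

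**Figure D4:**
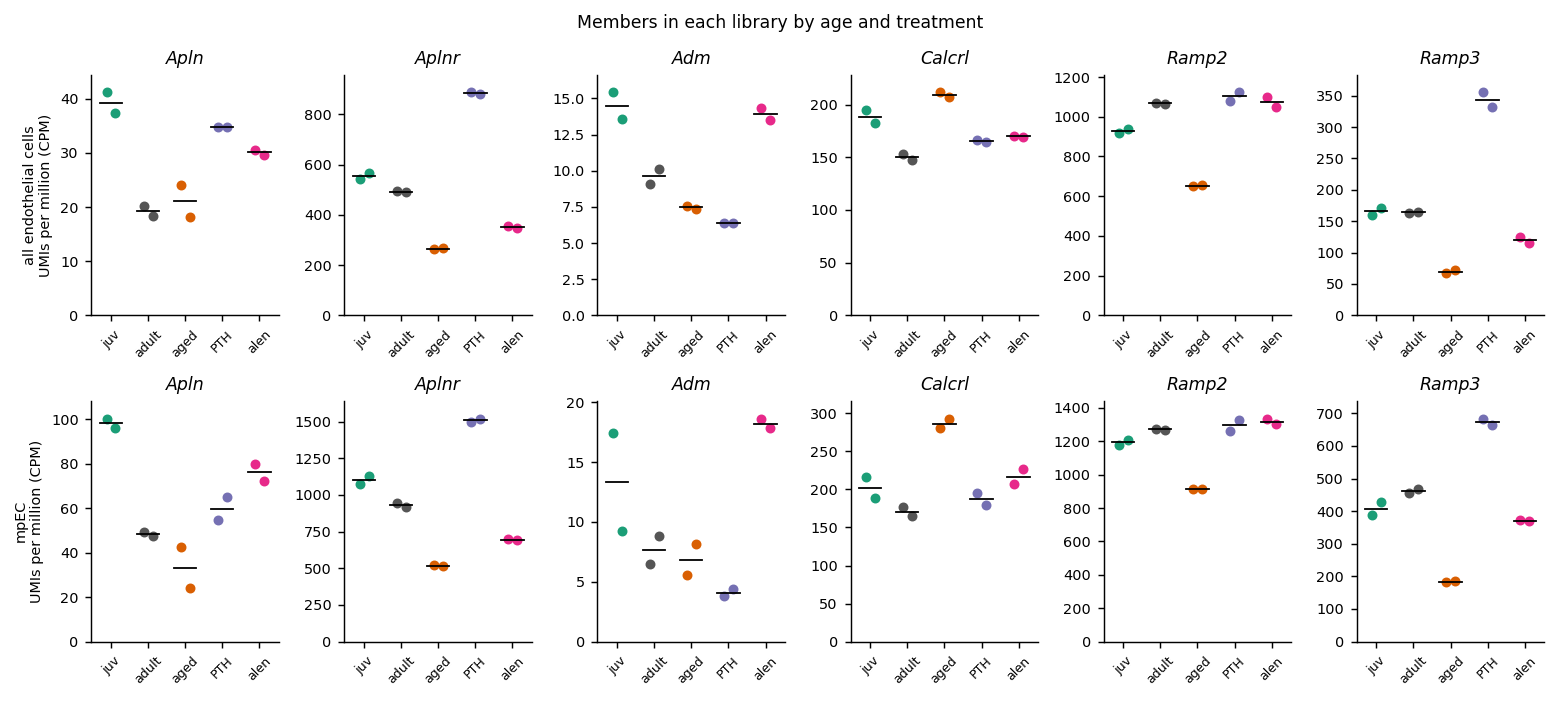
CPM values (linear axes from 0) of each gene in all endothelial cells (top) and mpEC (bottom). Points are the 2 libraries of each group and bars their mean. Aplnr and Ramp3 are highest in PTH and lowest in aged libraries in both sets of cells, and Adm in alendronate mpEC reads 18.6 and 17.8 against 6.51 and 8.85 CPM in adult mpEC.

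In juvenile libraries both ligands and both receptors were higher than in adult libraries and Ramp2 was lower, taken over all endothelial cells. Juvenile mice were of both sexes and adult mice female, so age and sex cannot be told apart here. Over all endothelial cells 5 of the 6 genes passed, beside 42.8% of all genes. Apln rose by 1.03 ± 0.0907 on the log2 scale (39.3 ± 2.67 against 19.3 ± 1.34 CPM, n = 2 each, adjusted p = 1.23e-08), Adm by 0.60 ± 0.105 (adjusted p = 9.72e-05), Calcrl by 0.33 ± 0.0392 and Aplnr by 0.17 ± 0.0328, and Ramp2 fell by 0.20 ± 0.0339. Ramp3 did not pass (0.01, adjusted p = 0.831). In mpEC 5 of 6 passed beside 30.4%, with Apln at 100.2 and 96.1 against 49.3 and 47.7 CPM (1.02 ± 0.117, adjusted p = 9.17e-09). In bmEC 5 of 6 passed beside 38.5%, among them Adm at 14.3 and 15.2 against 7.12 and 9.06 CPM (0.87 ± 0.150, adjusted p = 9.68e-06), while Apln (5.90 and 4.69 against 4.62 and 3.84 CPM) did not. In the Timp4/Aqp7 class Aplnr alone passed (beside 3.57%), and it was lower, at 430 and 381 against 969 and 1114 CPM (-1.35 ± 0.178, adjusted p = 5.67e-11). The juvenile sums of this class held only 47 and 31 cells, where 20 were the least allowed. In aEC 2 of 5 passed beside 8.82%, Ramp2 (0.23) and Apln, the latter on 12 UMIs against 6. The Ramp2 call ended without adult replicate 2 (0.19) and the Apln call without either adult replicate. None passed in the Tagln/Vwf/Fmo2 class (2.19%), with 27 and 37 juvenile cells, or pEC (3.95%). The Kcne3 cluster made up 70.0 and 71.4% of juvenile mpEC against 49.9 and 46.3% of adult mpEC. Within it 3 genes passed (21.9% of all genes), with Apln 0.54 higher (120 against 82.4 CPM), and in the other mpEC cluster, which carries Rbp7, 2 genes passed (14.2%), with Apln 1.44 higher (32.6 against 12.0 CPM) and Aplnr 0.45 higher. The calls of Adm, Calcrl and Ramp3 in mpEC ended without juvenile replicate 1, at 0.28, 0.15 and -0.11, as did that of Ramp3 in bmEC, at 0.24. That of Aplnr in bmEC (-0.14) ended without juvenile replicate 2.

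In aged libraries Aplnr, Ramp2 and Ramp3 were lower and Calcrl higher than in adult libraries. As given above, a difference in preparation or processing of the aged libraries cannot be told apart from age. Over all endothelial cells 5 of 6 genes passed, but so did 73.6% of all genes, so passing says little here and the sizes matter more. Ramp3 fell by 1.24 ± 0.0510 (adjusted p = 9.83e-15), Aplnr by 0.89 ± 0.0340 and Ramp2 by 0.71 ± 0.0343, Calcrl rose by 0.48 ± 0.0391, and Adm fell by 0.36 ± 0.120 (adjusted p = 0.0106), while Apln did not pass (0.13, adjusted p = 0.236). With libraries scaled by total counts only, the median of all genes in the aged comparison moved from 0.02 to 0.37 in all endothelial cells, from 0.03 to 0.43 in bmEC and from -0.01 to 0.17 in mpEC, and the share of called genes that were higher went from 50.6 to 68.4%. Under that scaling Aplnr in bmEC turned from -0.30 to 0.10, the only direction among the called values of these genes to do so. In the integrated classes Aplnr was lower in 5 of 5, at 519 and 513 against 948 and 914 CPM in mpEC (-0.85 ± 0.0400), 177 and 147 against 969 and 1114 in the Timp4/Aqp7 class (-2.67 ± 0.116) and 8.49 and 7.31 against 34.8 and 53.3 in aEC (-2.45 ± 0.266), where it lay near background. Without integrating the libraries Aplnr turned in aEC (2.58) and bmEC (0.11), and the Ramp3 calls were lost in aEC (-1.13 became -0.15) and bmEC (-1.28 became -2.02). There the aEC name also covered clusters of 2291 and 1072 cells in which no aEC marker stood among the 10 leading genes. It thus did not name the same cells as the integrated aEC class. Calcrl was higher in 5 of 5, at 280.1 and 293 against 176 and 165 CPM in mpEC (0.75 ± 0.0668), with the bmEC call lost at 0.0068 without integration, and Ramp2 was lower in 5 of 5, by 1.14 in bmEC. In all, 6 genes passed in bmEC (66.9% of all genes), 5 in mpEC (63.1%), 4 of 5 in aEC (52.3%), 4 in the Timp4/Aqp7 class (47.7%) and 4 in the Tagln/Vwf/Fmo2 class (34.0%). Apln went opposite ways, higher in aged bmEC (20.8 and 18.9 against 4.62 and 3.84 CPM, 2.23 ± 0.194, adjusted p = 5.87e-13) and lower in aged mpEC (42.4 and 24.0 against 49.3 and 47.7, -0.56 ± 0.143, adjusted p = 0.00096). The mpEC call ended without aged replicate 2 (-0.20). In clusters drawn without integrating the libraries both turned, to -8.03 in bmEC and 1.31 in mpEC, so they hold only for the integrated classes. The UMIs behind the value of -8.03 are not given here. Adult bmEC held Apln at only 4.62 and 3.84 CPM in the integrated class, so the size of that value is not read. The makeup of bmEC, which held 5 clusters, differed between these groups. In aged libraries 1 cluster held 47.0 and 43.8% of bmEC and the cluster with the fewest UMIs per cell 38.5 and 44.2%, against 27.8 and 25.04% and 19.6 and 19.3% in adult libraries. The other 3 clusters held 2.74 to 6.10% each in aged and 13.0 to 23.3% each in adult libraries. The part of this shift in the aged bmEC values of Apln, Aplnr, Adm, Calcrl, Ramp2 and Ramp3 was not tested. The Adm call over all endothelial cells ended with total counts (-0.01), DESeq2 (-0.34), the stricter cell filter (-0.24), without lymphatic-like cells (-0.22) and without adult replicate 2 (-0.31), in bmEC (0.58) without aged replicate 1 (0.39), and in the Tagln/Vwf/Fmo2 class (-3.63) without adult replicate 1 (-0.95). The Calcrl call in the Timp4/Aqp7 class (0.57) ended without adult replicate 1 (0.23). Adm in the Timp4/Aqp7 class was lower in aged than in adult libraries (-1.94).

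In PTH libraries Apln, Aplnr and Ramp3 were higher and Adm lower than in adult libraries, taken over all endothelial cells. Within bmEC and the Timp4/Aqp7 class Adm hardly moved (log2 -0.0055 and 0.013). Over all endothelial cells 5 of 6 genes passed, beside 29.1% of all genes. Ramp3 rose by 1.06 ± 0.0453 (adjusted p = 6.26e-13), Apln by 0.85 ± 0.0924 (adjusted p = 4.01e-07) and Aplnr by 0.84 ± 0.0327 (adjusted p = 1.38e-13), and Adm fell by 0.58 ± 0.121 (adjusted p = 0.00089). Ramp2 did not pass (0.05, adjusted p = 0.337). Scaled by total counts only, the share of called genes that were higher went from 50.6 to 64.0%. In mpEC 3 of 6 passed beside 16.5%. Aplnr read 1496 and 1520 against 948 and 914 CPM (0.70 ± 0.0381) and Ramp3 684 and 665 against 455 and 469 (0.54 ± 0.0473), while Apln did not pass (54.5 and 64.9 against 49.3 and 47.7, 0.33, adjusted p = 0.0531). In bmEC 4 of 6 passed beside 11.0%, with Ramp3 at 77.5 and 85.2 against 28.5 and 30.9 CPM (1.48 ± 0.0881, adjusted p = 4.82e-16), Aplnr higher by 0.74, Apln at 11.3 and 7.92 against 4.62 and 3.84 CPM (1.07 ± 0.226), and Ramp2 lower (-0.17). Apln and Aplnr in bmEC lost their calls without integration, at 0.09 and 0.04. Over all groups, the bmEC shares of Ramp3 and Apln were not told apart from those of mural and mesenchymal cells, as given above. The highest single bmEC library held Ramp3 in 9.13% and Apln in 2.08% of thinned cells. In aEC 2 of 5 passed beside 5.38%, Aplnr (95 and 69.7 against 34.8 and 53.3 CPM, 0.83, again near background) and Ramp3 (0.41), and both calls ended when 1 library was left out, Aplnr at 0.54 without adult replicate 1. Ramp2 was lower in the Timp4/Aqp7 class (-0.46, 1 of 6, beside 2.67%), Ramp3 higher in pEC (0.61, 1 of 5, beside 1.76%, a call lost without either adult replicate, with DESeq2 and without integration), and Adm lower in the Tagln/Vwf/Fmo2 class (-2.53, 1 of 6, beside 0.808%), where adult replicate 1 held 36 of 39 adult UMIs and the value was 0.19 without it. The calls of Calcrl over all endothelial cells (0.14) and of Adm in mpEC (-0.85) ended without adult replicate 2, at 0.11 and -0.63. Both calls were also lost with DESeq2, and that of Adm with the replicate block (-0.83), total counts (-0.83), coarser (-0.67) or finer (-0.78) clusters, marker gates (-1.01) and the stricter cell filter (-0.82).

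In alendronate libraries both ligands and Calcrl were higher, and Aplnr and Ramp3 lower, than in adult libraries, taken over all endothelial cells. Within the Timp4/Aqp7 class Adm read -0.42 on the log2 scale and did not pass. Over all endothelial cells 5 of 6 genes passed, beside 27.4% of all genes. Apln rose by 0.64 ± 0.0921 (adjusted p = 2.24e-05), Adm by 0.54 ± 0.103 (adjusted p = 0.000528) and Calcrl by 0.18 ± 0.0391, and Aplnr fell by 0.49 ± 0.0332 (adjusted p = 9.24e-10) and Ramp3 by 0.45 ± 0.0471. Ramp2 did not pass (0.01, adjusted p = 0.915). In mpEC 5 of 6 passed beside 12.2%, with Adm at 18.6 and 17.8 against 6.51 and 8.85 CPM (1.26 ± 0.235, adjusted p = 0.000213), on 90 and 78 against 32 and 39 UMIs. Apln in mpEC read 79.9 and 72.2 against 49.3 and 47.7 CPM (0.65 ± 0.121), a call lost with DESeq2, and Aplnr 698 and 693 against 948 and 914 (-0.42 ± 0.0391). In bmEC 5 of 6 passed beside 19.1%, with Aplnr at 166 and 170.4 against 249 and 254 CPM (-0.58) and Adm at 13.0 and 12.4 against 7.12 and 9.06 (0.66 ± 0.158). The bmEC calls of Adm and Calcrl ended without adult replicates 1 and 2, at 0.49 and 0.18, and those of Ramp2 and Ramp3 without alendronate replicate 2, at -0.07 and -0.32. In the Timp4/Aqp7 class 2 of 6 passed beside 2.93%, with Aplnr at 610 and 664 against 969 and 1114 CPM (-0.71 ± 0.0952) and Ramp2 lower (-0.35, a call that ended without adult replicate 2 at -0.32). Ramp3 was lower in aEC (-0.51, 1 of 5, beside 5.31%, a call lost without either alendronate replicate, with DESeq2 and without integration), Apln higher in pEC (126 and 187 against 62.4 and 69.3 CPM, 1.26 ± 0.279, 1 of 5, beside 1.27%), and Adm lower in the Tagln/Vwf/Fmo2 class (-2.13, 1 of 6, beside 1.05%), which turned to 0.56 without adult replicate 1. The pEC call ended without alendronate replicate 2 (0.95).

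**Figure D5:**
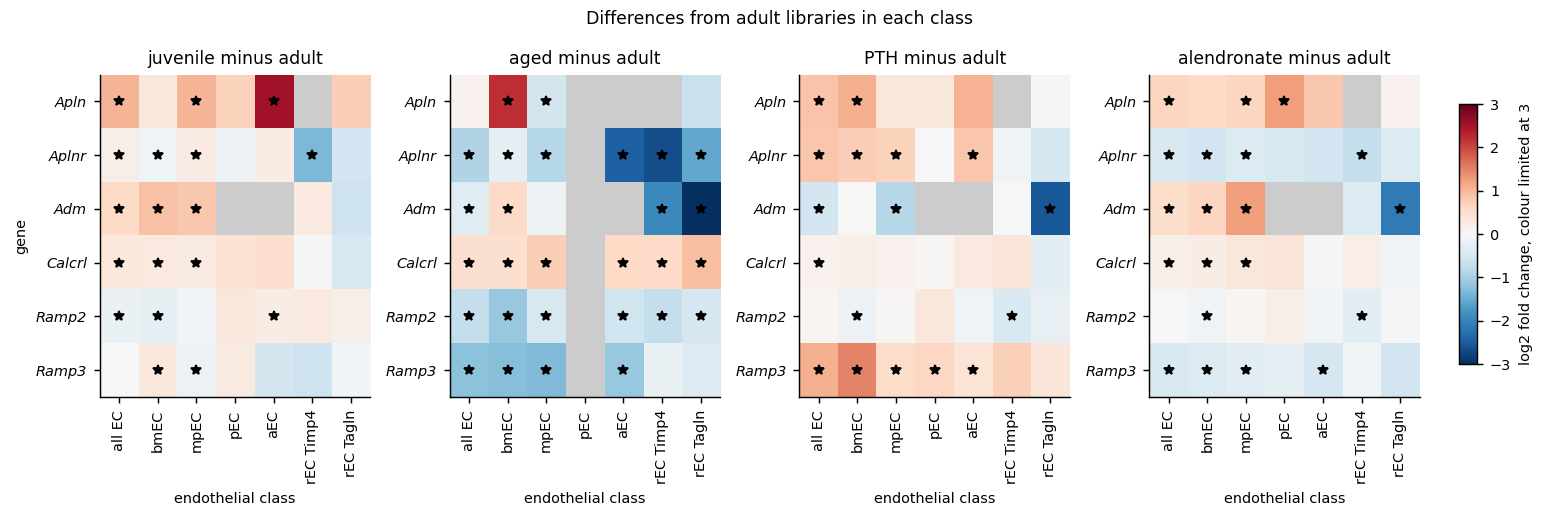
Log2 fold change from adult libraries (colour, red higher and blue lower, limited at 3) of each gene (rows) in all endothelial cells and each class (columns), for the 4 comparisons. Stars mark an adjusted p under 0.05 and grey cells were not tested or had too few UMIs for a fold. Aplnr and Ramp3 are red over most columns under PTH and blue over most columns in aged and alendronate libraries.

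Whether a gene's change differed between classes was tested directly, as the change in a class less the mean change in the others. Of 138 such differences 24 passed, 10 for Aplnr, 8 for Ramp2, 2 each for Apln, Adm and Ramp3, and none for Calcrl. Over all genes and classes 1.50% passed for juvenile, 5.47% for aged, 0.664% for PTH and 0.438% for alendronate libraries. Aplnr fell less in aged bmEC (difference 1.71) and mpEC (0.91) than in the other classes, and more in the Timp4/Aqp7 class (-1.44) and aEC (-1.18). Under PTH its change stood above the mean of the other classes in bmEC (0.56) and mpEC (0.51) and below it in the Timp4/Aqp7 (-0.45) and Tagln/Vwf/Fmo2 (-0.94) classes. The difference in aEC was of like size but did not pass (0.64, adjusted p = 0.0763), and both aEC differences of Aplnr, aged and PTH, concern levels near background. The PTH change of Ramp3 was greater in bmEC by 0.95, and the aged change of Apln was greater in bmEC by 3.06 ± 0.574 (adjusted p = 1.68e-05), in a class whose clusters were held in other shares by aged and adult libraries, as given above. Leaving out adult replicate 2 ended the calls of Apln in aged bmEC (1.22) and of Aplnr in aged aEC (-0.93) and PTH mpEC (0.32), and leaving out PTH replicate 1 that of Aplnr in the PTH Timp4/Aqp7 class (-0.33).

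Other genes of the pathways were followed as lists, for which counts of called genes are given beside those over all genes. Of 21 hypoxia-inducible genes tested in all endothelial cells, 13 were higher and 3 lower in juvenile and 12 and 3 in alendronate libraries. In the same sums, though not in each class, Apln and Adm were both higher in these groups. Of all genes 21% were higher and 21.8% lower in juvenile libraries and 14.6% and 12.8% in alendronate libraries. The list medians were 0.20 and 0.25, against -0.01 over all genes in both. Vegfa, the main endothelial growth factor of the list, was higher by 0.44 in juvenile and 0.47 in alendronate libraries. The oxygen sensor Egln3 was higher by 1.07 and 1.29 and lactate dehydrogenase Ldha by 0.20 and 0.25, while the glycolytic Pgk1 was lower in juvenile libraries (-0.52). Under PTH 5 were higher and 4 lower, Vegfa among the latter (-0.38), with a median of -0.02. In aged libraries 11 were higher and 8 lower (37.3% and 36.4% of all genes), with Vegfa at 1.05 and Ldha at -0.73. Whether this list and the ligands moved for a shared reason was not tested.

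Of 19 tip cell genes tested, 14 were higher and 1 (Kdr) lower under PTH (14.7% and 14.4% of all genes, list median 0.50), with Esm1 at 1.04 and Kcne3 at 1.29. The counts were 10 and 7 in juvenile, 11 and 6 in aged and 10 and 3 in alendronate libraries. Between classes, 7 of the 19 were higher in mpEC (Esm1, Fscn1, Kcne3, Lamb1, Nid2, Pgf and Trp53i11) and none lower (2.94% and 3.47% of all genes), where Kcne3 and Lamb1 also served to name the class. Of 21 signal transduction genes, 7 were higher and 5 lower in juvenile, 15 and 5 in aged, 6 and 3 in PTH and 3 and 2 in alendronate libraries. Of 8 genes of peptide processing the same counts were 2 and 4, 5 and 1, 3 and 1 and 3 and 1. These stand beside 21% higher and 21.8% lower of all genes in juvenile, 37.3% and 36.4% in aged, 14.7% and 14.4% in PTH and 14.6% and 12.8% in alendronate libraries. Prcp, which encodes a carboxypeptidase that trims apelin, was higher in juvenile (0.57), PTH (0.79) and alendronate (0.22) and lower in aged libraries (-0.51). Among related receptor genes, Ackr3, a scavenger receptor for adrenomedullin and chemokines, was lower in juvenile libraries (-0.78) and higher in aged (0.92), PTH (0.81) and alendronate (1.06) libraries. Gpr182, a receptor gene that has been linked to adrenomedullin, was lower in all 4 comparisons (-0.27, -1.44, -0.82 and -0.43, in the order juvenile, aged, PTH, alendronate). Ramp1, the partner that makes CALCRL a receptor for calcitonin gene-related peptide, had 243 UMIs and was lower in juvenile (-2.35) and aged (-2.61) libraries. It was also among the 10 leading genes of the granulocyte precursor cluster at the finer resolution. The summed level of that marker list, given above, was lower in juvenile and higher in aged than in adult libraries, and its part in the Ramp1 values was not tested. Of the other ligand genes Calca had 113 UMIs, Adm2 3 and Calcb 1, and the calcitonin receptor gene Calcr 6.

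The genes most like each member were sought by the Pearson correlation of log2(CPM + 10) over 58 sums of classes and libraries, which share libraries and cells, among up to 6679 genes. They were Prcp (0.85), Cda (0.82) and Nsg1 (0.80) for Apln, and Fscn1 (0.91), Emcn (0.86) and Tpst2 (0.85) for Aplnr. For Adm the values were lower, with Gimap6 (0.67), Ppp1r2 (0.65) and Tspan6 (0.64). Nrp2 (0.75), Sntb2 (0.75) and Bst1 (0.74) were most like Calcrl, Crip2, Arl6ip5 and Dnpep (0.83 each) most like Ramp2, and Kcne3 (0.87), Lrp4 (0.85) and Klhl6 (0.81) most like Ramp3. With class means removed the values, in the same order, were 0.54, 0.32 and 0.28 for Apln, 0.74, 0.71 and 0.75 for Aplnr, and 0.34, 0.32 and 0.21 for Adm. They were 0.64, 0.42 and 0.14 for Calcrl, 0.76, 0.74 and 0.64 for Ramp2, and 0.58, 0.63 and 0.39 for Ramp3, so the likeness within classes was weaker for all 18 genes. Between the members themselves the correlation was 0.69 for Apln and Aplnr, 0.55 for Aplnr and Ramp3, 0.53 for Apln and Ramp3, 0.51 for Aplnr and Adm, 0.06 for Adm and Calcrl, 0.04 for Calcrl and Ramp3 and -0.32 for Calcrl and Ramp2.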

How the data were processed

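The 10 tables held UMI counts per gene and cell, as deposited. Per the submitters' processing notes the authors made these counts with UMI-tools 1.1.2, STAR 2.7.10a and featureCounts 2.0.3 of the Subread package on mm10. The annotation release and the use of strand are not given in the sources used here. From them, 286 symbols with UMIs only in aged libraries (1.53 to 1.54% of aged UMIs) were left out. Python 3.11.15 and R 4.3.3 were used. Cells were integrated by reciprocal PCA in Seurat 5.3.0 (2000 variable features, 30 components, resolution 0.5) in place of the study's method, for memory, and no doublets were removed, their removal being an alternative. UMIs of each class were summed by library (20 cells or more), filtered with filterByExpr, scaled by TMM and tested with edgeR 4.0.16 (quasi-likelihood, Benjamini-Hochberg). DESeq2 1.42.0 was an alternative. Class and ligand-cell calls needed an adjusted p under 0.05 and an absolute log2 fold change over 1, group calls the p alone. Ligand cells were to be compared inside the class with most ligand, where no library had 20 of them, so all endothelial cells were used, a choice made after seeing the data. Cells were thinned to 1000 UMIs for shares, and intervals (95% exact binomial) cover counting error only. Scripts were tested on simulated data. The members and lists were chosen with earlier results of these data known. Named genes were the members, list genes by count with examples, the 3 genes most correlated with each member (mean of at least 20 CPM), and for ligand cells the 5 largest called changes each way that kept 1 direction in every library. Promoter windows came from RefSeq on GRCm38.p6, with 4 of 6 members matched.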

Additional observations from a re-analysis of the deposited data

Results flagged for a closer look

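The 24 differences below passed the test that a gene's change from adult libraries in a class departs from its mean change in the other classes (edgeR, adjusted p under 0.05). Each value is a log2 difference, positive where the change was higher in the named class. No explanation was tested for any of them.

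Apln differed in bmEC, by -1.29 in juvenile and 3.06 in aged libraries, and the calls ended without adult replicate 1 (-0.87) and adult replicate 2 (1.22), respectively. In juvenile libraries its own change in bmEC was 0.32. The other changes were 1.02 in mpEC, 0.73 in the Tagln/Vwf/Fmo2 class, 0.68 in pEC, 2.51 in aEC and 3.11 in the Timp4/Aqp7 class. The last 2 classes held only 60 and 48 Apln UMIs in all libraries. Adm differed by 2.61 in aged bmEC, where its own change was 0.58. The other classes included the Timp4/Aqp7 class (-1.94) and the Tagln/Vwf/Fmo2 class (-3.63). In the latter, 1 adult library held most of the adult UMIs. Adm also differed by -2.56 in the Tagln/Vwf/Fmo2 class under alendronate, and the value was 0.47 without that library.

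Aplnr differed in juvenile mpEC by 0.66 and in the juvenile Timp4/Aqp7 class by -1.36. In aged libraries it differed by 1.71 in bmEC, 0.91 in mpEC, -1.18 in aEC and -1.44 in the Timp4/Aqp7 class. Under PTH it differed by 0.56 in bmEC, 0.51 in mpEC, -0.45 in the Timp4/Aqp7 class and -0.94 in the Tagln/Vwf/Fmo2 class.

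Ramp2 differed in juvenile bmEC by -0.45, in juvenile mpEC by -0.23 and in juvenile pEC by 0.41. In aged libraries it differed by -0.43 in bmEC and 0.28 in mpEC. In the Timp4/Aqp7 class it differed by -0.45 under PTH and -0.30 under alendronate, and in pEC by 0.51 under PTH. Ramp3 differed by -0.55 in aged mpEC and by 0.95 in bmEC under PTH. Leaving out 1 library ended the Ramp2 calls in juvenile mpEC (-0.19 without juvenile replicate 2), in pEC of juvenile (0.26) and PTH (0.36) libraries, both without adult replicate 2, and in the Timp4/Aqp7 class under PTH (-0.61 without PTH replicate 2) and alendronate (-0.20 without adult replicate 2), and that of Ramp3 in aged mpEC (-0.46 without aged replicate 2).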

How the results depend on the processing

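Of 36 class values, 17 passed, and 10 with cells gated on markers (30 values, since pEC has no gate). Under alendronate 20 group values passed, 12 with DESeq2 (where 16 of 155 group values had no adjusted p) and 13 without alendronate replicate 2. For Apln against Aplnr cells 18 genes passed, 6 with DESeq2, 191 with no filter on low counts, 39 at 2000 UMIs, 299 for any cell with Apln against any without, 9 within mpEC, 54 within mpEC for any cell with Apln, and 34 without aged replicate 1. For Adm against Calcrl cells 40 passed, 125 with no filter, 98 for any cell with Adm and 1 within bmEC. The Apln and Aplnr odds ratio of 3.28 became 4.17 at 2000 UMIs and 5.92 without thinning, settings that also changed which cells entered or left their depths unequal.

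Leaving out each library gave 16 to 18 class calls, 13 to 19 juvenile, 25 to 28 aged, 12 to 18 PTH and 13 to 21 alendronate calls, 17 to 26 differences between classes, 17 to 34 genes for Apln cells and 28 to 52 for Adm cells. Without adult replicate 1, Adm in the Tagln/Vwf/Fmo2 class turned to 0.19 under PTH and 0.56 under alendronate, and its difference from the other classes to 0.47. Without adult replicate 2 the same values were -3.42, -3.01 and -3.87, the other ends of their ranges.

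Directions turned without integration for Apln in aged bmEC (-8.03, a size not read, as given above), mpEC (1.31) and aEC (2.55), Aplnr in juvenile bmEC (0.0297), aged bmEC (0.11) and aged aEC (2.58), Adm in aged mpEC (1.79) and Ramp3 in juvenile mpEC (0.0138). With marker gates they turned for Aplnr in juvenile bmEC (0.0185), Ramp3 in juvenile mpEC (0.24) and aEC (0.40), and, between classes, Adm in the Tagln/Vwf/Fmo2 class (-1.89; -1.83 at resolution 0.8) and Ramp3 in aEC (1.18). With total counts only, Aplnr in aged bmEC turned (0.10). Without integration the aEC name also covered clusters of 2291 and 1072 cells with no aEC marker among their 10 leading genes. The cause of these turns was not tested.

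With a replicate block the counts were 18 juvenile, 28 aged, 18 PTH and 21 alendronate calls, and 1 call, that of Adm in PTH mpEC, was lost (-0.83). The replicate numbers did not pair the samples, with correlations of replicate deviations from -0.077 to 0.242. Total counts also moved the share of called genes that were higher from 50.6 to 70.7% in aged bmEC and from 49.99 to 61.9% in aged mpEC, and DESeq2 from 53.3 to 63.8% under alendronate.

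With 2 libraries a group and few ligand UMIs, small changes of Apln and Adm in the rarer classes were not detectable at this depth.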
